A study of Arabidopsis thaliana with 9 samples.

Results

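The genes described here are the plastid-encoded subunits of the photosynthetic machinery of Arabidopsis thaliana, measured in whole 3-day seedlings of 3 genotypes. They were chosen by name: probe sets paired with 1 gene of the plastid genome whose symbol starts with psa, psb, pet, atp or ndh, or is rbcL. This rule gave 44 genes with 1 probe set each, of 22810 probe sets on the array, and the rule uses names alone, though the set was proposed with earlier results of these data known. Of the 44, 5 encode photosystem I proteins, 15 encode proteins of photosystem II or its assembly, 6 belong to the cytochrome b6f complex, 6 to ATP synthase and 11 to the NADH dehydrogenase-like (NDH) complex, and rbcL encodes the large subunit of RuBisCO.

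The groups were untransformed Col-0, Col-0 transformed with a non-mutated SPL13 gene (called SPL13), and Col-0 transformed with the mutant gene whose mRNA resists microRNA156 (called mSPL13). Both transgenes were under the native SPL13 promoter, so both transformed groups carry a transgene beside their own SPL13 gene. SPL13 (SQUAMOSA-PROMOTER-BINDING PROTEIN-LIKE13) is a transcription factor of a plant family, many members of which microRNA156 represses early in development. Each group had 3 arrays, from independent seed lots. The seedlings were grown on medium with sucrose, for 3 days in the cold and dark and then for 3 days at 22 °C in light. The selection of the transformed lines and the number of lines in a group are not given in the sources used here. All 11 probe sets of nuclear-encoded photosynthesis genes and all 4 of genes listed as root markers passed the signal filter, which does not measure the share of a tissue.

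The plastid genome keeps a small set of genes from the cyanobacterial ancestor, mostly for photosynthesis and for the plastid's own gene expression, while most subunits of the same complexes are encoded in the nucleus. Many plastid genes are cotranscribed in operons, and the long transcripts are then cut, trimmed and protected by nuclear-encoded RNA-binding proteins, so genes of 1 operon can have unequal RNA levels. Transcription of the photosynthesis genes rises as the plastids of a germinating seedling turn into chloroplasts in light.

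Values are microarray signals on the linear scale that the authors gave every array. Fold changes are on the scale log2(signal + 20.7), which understates the change of dim probe sets. A probe set was called where limma's Benjamini-Hochberg adjusted p over all 13629 probe sets tested was under 0.05. The brightness of a probe set depends on its probes, so signals are compared between arrays and not between genes. Errors of log2 fold changes are the moderated SE of limma with n = 3 arrays per group. The median signal of an array ranged from 175.6 to 190.8, and precision is limited by the number of arrays.

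The plastid photosynthesis genes were low on all 3 SPL13 arrays and at or slightly above the Col-0 level on the mSPL13 arrays. Over the 40 members tested, the median log2 value relative to each gene's Col-0 mean was 0.18, 0.09 and -0.26 on the Col-0 arrays. It was -2.35, -0.93 and -0.76 on the SPL13 arrays and 0.26, 0.08 and 0.47 on the mSPL13 arrays. The 3 SPL13 arrays thus lay below all the others, and SPL13 replicate 1 lay far below SPL13 replicates 2 and 3. The 44 genes together made up 1.52%, 1.47% and 1.3% of the summed signal of the Col-0 arrays, 0.479%, 0.94% and 0.983% of that of the SPL13 arrays, and 1.63%, 1.55% and 1.71% of that of the mSPL13 arrays. SPL13 replicate 1 was the lowest of the 9 arrays for 39 of the 44 genes. For 32 of the 44, every SPL13 array was below every other array. Of all probe sets tested, 6.07% had every SPL13 array below every Col-0 array, and the share also below mSPL13 can be no larger. For the count on SPL13 replicate 1 the share of all probe sets was not computed, so it describes that array only. In whole seedlings, fewer cells of a type and less RNA per cell cannot be told apart. On the same SPL13 arrays the 11 nuclear-encoded photosynthesis genes tested, of 57 listed, had medians of 0.17, 0.02 and 0.08 relative to Col-0. The share of green tissue was not tested.

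**Figure D1:**
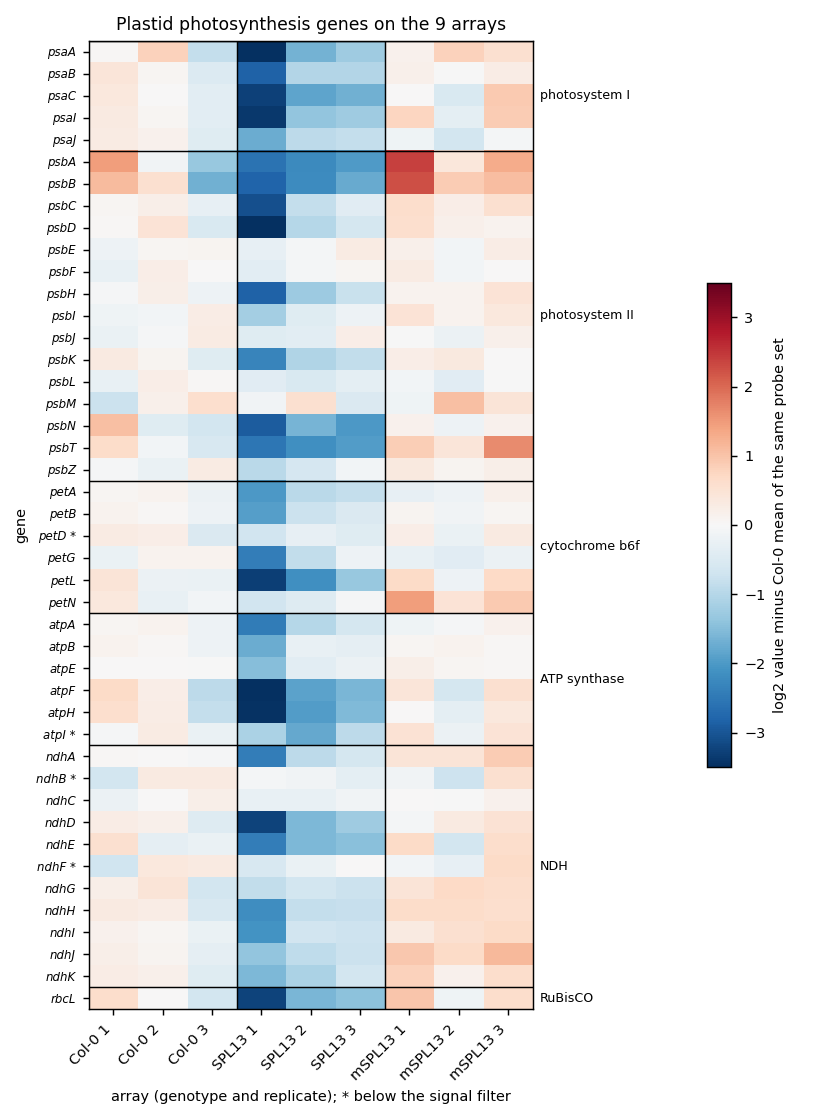
Heat map of the log2 value of each of the 44 genes (rows, grouped by complex, with an asterisk for the 4 below the signal filter) on each of the 9 arrays (columns) minus the Col-0 mean of the same probe set, with blue for lower and red for higher. The SPL13 columns are blue for most genes and bluest in replicate 1, while psbE, psbF, psbJ, psbM and ndhC stay pale in them.

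Setting mSPL13 against SPL13 compares a transgene that escapes microRNA156 with one that does not. In this comparison, 29 of the 40 members tested (72.5%) were called higher in mSPL13, beside 1.86% of all probe sets tested. The 29 include psbN, psbT, petN and ndhH, whose SPL13 means lay under the signal filter. Those genes were tested through their higher values in the other groups, and the share without them was not computed. None of the 40 was called lower with limma, beside 1.17% of all probe sets. At an unadjusted p under 0.05, 35 members were higher and 0 lower, beside 8.6% and 8.09% of all probe sets. The median log2 fold change of the 40 was 1.72, and that of all probe sets tested was -0.001. For mSPL13 minus Col-0 the median of the 40 was 0.23, and for SPL13 minus Col-0 it was -1.29. Below, a rise with no group named is relative to SPL13. The 3 mSPL13 arrays lay above the 3 SPL13 arrays for 34 of the 40, and for 36 of all 44 genes, beside 12.4% of all probe sets tested. Without mSPL13 replicate 3 the count of calls was 18, and without any other single array it was between 21 and 31. Without SPL13 replicate 1 the median was 1.21, and 28 were called, of which 27 were among the 29.

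The comparison of SPL13 with Col-0 sets the non-mutated transgene against the wild type, and it shares the SPL13 arrays with the comparison above. All 40 fold changes were negative, with a median of -1.29 beside 0.012 for all probe sets tested. The SPL13 arrays lay below the Col-0 arrays for 32 of the 40, and for 33 of all 44, beside 6.07% of all probe sets tested. In limma's test 1 member, psbT, was called lower and 0 were called higher, beside 0.0367% and 0.0147% of all probe sets. The SPL13 mean of psbT lay under the signal filter, so it was tested through its higher values in the other groups. At an unadjusted p under 0.05, 34 members were lower and 0 higher, beside 4.49% and 4.34% of all probe sets. The count of calls turned on single arrays. It was 19 without Col-0 replicate 3, 16 without SPL13 replicate 3, 5 without SPL13 replicate 1, 4 without mSPL13 replicate 2, 2 without mSPL13 replicate 3, and 0 without Col-0 replicate 1, Col-0 replicate 2, SPL13 replicate 2 or mSPL13 replicate 1. Without SPL13 replicate 1 the median was -0.82, and the 5 called were psbT, psbH, petA, petL and ndhD.

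By the size of the SPL13 minus Col-0 change, 11 of the 40 members were below -2 on the log2 scale, 17 lay between -1 and -2, 5 between -0.5 and -1, and 7 between 0 and -0.5. The last 7 were psbE, psbF, psbJ, psbL, psbM, petN and ndhC. The 11 were psaA, psaC, psbA, psbB, psbN, psbT, petL, atpF, atpH, ndhD and rbcL, so genes of every complex were among them. Without SPL13 replicate 1, only psbA (-2.10) and psbT (-2.05) were below -2, while 13 lay between -1 and -2, 14 between -0.5 and -1, 8 between 0 and -0.5, and psbE, psbF and psbM at about 0. The SPL13 group mean of psbN, psbT, petN and ndhH lay under the signal filter, which corresponds to a signal of 100.9, so these 4 were tested through their higher values in the other groups. With no filter, 20 of all 44 genes were called higher in mSPL13 than in SPL13. That fit ended the calls of psaA, psaB, psbC, psbH, psbI, psbZ, petA, petB, atpA and atpF and added atpI. Without trend, the calls of psbC, psbI, psbZ, petB and atpA were lost, on the compared groups only those of psbC, petB and atpA, and with array quality weights that of atpA.

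**Figure D2:**
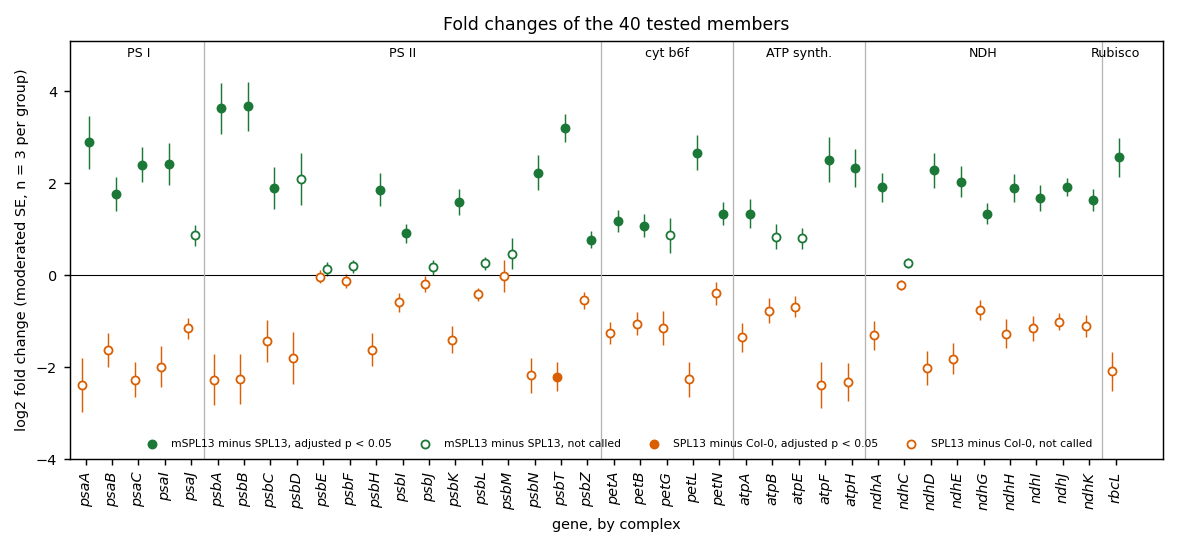
Log2 fold change (vertical axis, with the moderated SE) of the 40 tested genes, grouped by complex, for mSPL13 minus SPL13 (green) and SPL13 minus Col-0 (orange), filled where called. All 40 green points are above 0 and all 40 orange points below it, 29 of the green and 1 of the orange are filled, and the psbE, psbF, psbJ, psbL, psbM and ndhC points lie near 0 in both.

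Photosystem I takes light energy to reduce ferredoxin, and its reaction centre is a pair of large proteins encoded by psaA and psaB. All 5 plastid-encoded members were tested, and psaA, psaB, psaC and psaI were called higher in mSPL13 than in SPL13, with a median of 2.4 over the 5. The psaA signal was 2004, 3414 and 1099 on the Col-0 arrays, 82.8, 611 and 814 on the SPL13 arrays and 2176, 3436 and 2888 on the mSPL13 arrays. SPL13 replicate 1 stood far below the other SPL13 arrays, and all 3 of them were below every other array. The log2 fold change of psaA was 2.89 ± 0.58 for mSPL13 minus SPL13 (limma adjusted p = 0.0158) and -2.39 ± 0.58 for SPL13 minus Col-0 (adjusted p = 0.221). Its reaction-centre partner psaB had signals of 21241, 16898 and 11364 on the Col-0 arrays, 2224, 7822 and 7898 on the SPL13 arrays and 18044, 15952 and 19100.4 on the mSPL13 arrays. The pattern was the same in kind and smaller, with log2 fold changes of 1.77 ± 0.37 (adjusted p = 0.0184) and -1.63 ± 0.37 (adjusted p = 0.147), and without SPL13 replicate 1 the first was 1.17. PsaC carries the iron-sulphur clusters that pass electrons to ferredoxin. Its gene was higher in mSPL13 than in SPL13 by 2.40 ± 0.38 (limma adjusted p = 0.00436), and the small subunit gene psaI by 2.42 ± 0.45. In mSPL13 minus Col-0, psaC and psaI were at 0.14 and 0.43, neither called. In SPL13 minus Col-0 they were at -2.27 and -1.99, neither called. The smallest change of this complex was that of psaJ, which encodes another small subunit, with signals of 13612, 12331 and 8346 on the Col-0 arrays, 3329.5, 5964 and 6298 on the SPL13 arrays and 10097, 7123 and 10733 on the mSPL13 arrays. Its groups mSPL13 and SPL13 did not overlap, but the difference of 0.87 ± 0.23 missed the threshold (adjusted p = 0.0642), which it passed without Col-0 replicate 3 (adjusted p = 0.0394). The call of psaA was lost without mSPL13 replicate 2 (2.74) or 3 (2.86), that of psaB without mSPL13 replicate 1 (1.75) or 3 (1.71), and that of psaI without mSPL13 replicate 3 (2.2). With no filter the adjusted p was 0.067 for psaA and 0.0756 for psaB.

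Photosystem II splits water and passes its electrons to plastoquinone. Its 15 members held both the largest and the smallest log2 fold changes of mSPL13 minus SPL13 among the 40, from 0.14 to 3.67, with a median of 1.59 and 9 calls. The reaction-centre protein D1, which light damage makes the plastid replace again and again, is encoded by psbA. The psbA signal was 3613, 1205 and 506 on the Col-0 arrays, 199, 262 and 319 on the SPL13 arrays and 6934, 1729 and 3279.8 on the mSPL13 arrays. The SPL13 arrays were close together at 260.0 ± 59.88 (SD, n = 3), below every other array, while the Col-0 arrays spread over a wide range. The log2 fold change was 3.63 ± 0.55 for mSPL13 minus SPL13 (adjusted p = 0.00337), a 12.4-fold rise, -2.27 ± 0.55 for SPL13 minus Col-0 (adjusted p = 0.216) and 1.37 ± 0.55 for mSPL13 minus Col-0 (adjusted p = 0.181).

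CP47, an inner antenna protein of photosystem II, is encoded by psbB, whose signal was 2177, 1498 and 301 on the Col-0 arrays, 127, 201 and 278 on the SPL13 arrays and 4894, 1886 and 2137 on the mSPL13 arrays. Col-0 replicate 3 came close to the highest SPL13 array, and the mSPL13 arrays overlapped those of Col-0. In mSPL13 against SPL13 the gene rose 12.7-fold (log2 fold change 3.67 ± 0.54, adjusted p = 0.00305). The small subunit gene psbT had signals of 664, 384 and 278 on the Col-0 arrays, 55.3, 77.3 and 91.6 on the SPL13 arrays and 776, 567 and 1358 on the mSPL13 arrays. All SPL13 arrays lay below 100.9, the signal at the filter, and psbT was the 1 member called in SPL13 against Col-0, at -2.21 ± 0.31 (adjusted p = 0.0313). That call was lost without Col-0 replicate 1 (-1.88), Col-0 replicate 2 (-2.26), SPL13 replicate 2 (-2.24) or mSPL13 replicate 1 (-2.21), and also with no filter or with no trend. Against SPL13, psbT rose by 3.20 ± 0.31 in mSPL13 (adjusted p = 0.000111), and that call held under every alternative tried.

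Other photosystem II genes were also called higher in mSPL13 than in SPL13. The difference was 2.23 ± 0.38 for psbN, needed to assemble the reaction centre. For psbC, the gene of the inner antenna protein CP43, it was 1.90 ± 0.46. In the small subunit genes psbH, psbK, psbI and psbZ it was 1.86 ± 0.36, 1.59 ± 0.29, 0.91 ± 0.21 and 0.77 ± 0.18. Against Col-0, the mSPL13 values of psbN, psbC, psbH, psbK, psbI and psbZ were 0.04, 0.47, 0.24, 0.19, 0.32 and 0.22, none called. The same genes in SPL13 minus Col-0 were at -2.18, -1.43, -1.62, -1.40, -0.59 and -0.55, none called. The gene of the other reaction-centre protein, D2, is psbD, whose signal was 1139, 1528 and 755 on the Col-0 arrays, 61.1, 539.8 and 702 on the SPL13 arrays and 1657, 1235 and 1197 on the mSPL13 arrays. SPL13 replicate 1 was far below the other SPL13 arrays, and the difference of 2.09 ± 0.57 was not called with all arrays (adjusted p = 0.0677). It was called without SPL13 replicate 1, at 1.11, and without SPL13 replicate 3, at 2.68. The value of psbC without SPL13 replicate 1 was 1.08, and that of psbN with the higher pseudocount of 100.9 was 1.37. The calls of psbI and psbZ were lost without that array (0.61 and 0.57), psbZ also without SPL13 replicate 2 (0.74), and both without mSPL13 replicate 1 (0.83 and 0.70) or 3 (0.89 and 0.77), psbZ also without mSPL13 replicate 2 (0.83). The call of psbH was lost without mSPL13 replicate 3 (1.74). That of psbC was lost without mSPL13 replicates 1 to 3 (1.83, 2.02 and 1.85) and without Col-0 replicate 1 or 2 (1.9). With no filter the adjusted p was 0.127 for psbC, 0.0544 for psbH, 0.0959 for psbI and 0.104 for psbZ.

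The remaining 5 photosystem II genes, psbE, psbF, psbJ, psbL and psbM, were not called in any comparison. Cytochrome b559, which helps assemble photosystem II and shields it from light damage, is made from psbE and psbF. The psbE signal was 3561, 4240.5 and 4309.8 on the Col-0 arrays, 3284, 3815 and 4912 on the SPL13 arrays and 4552, 3754 and 4826 on the mSPL13 arrays. The 3 groups overlapped, and the log2 fold change was 0.14 ± 0.15 for mSPL13 minus SPL13 and -0.03 ± 0.15 for SPL13 minus Col-0. For psbF the same 2 values were 0.19 ± 0.15 and -0.12 ± 0.15, for psbJ 0.17 ± 0.17 and -0.19 ± 0.17, and for psbL 0.26 ± 0.14 and -0.42 ± 0.14. The small subunit gene psbM had signals of 8737, 16605 and 22062 on the Col-0 arrays, 13513, 21867 and 10358 on the SPL13 arrays and 13249.6, 30514 and 20264 on the mSPL13 arrays. These varied widely within every group, and the lowest Col-0 array was below the lowest SPL13 array. The differences of psbM were 0.47 ± 0.34 (adjusted p = 0.521) and -0.02 ± 0.34 (adjusted p = 0.991).

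**Figure D3:**
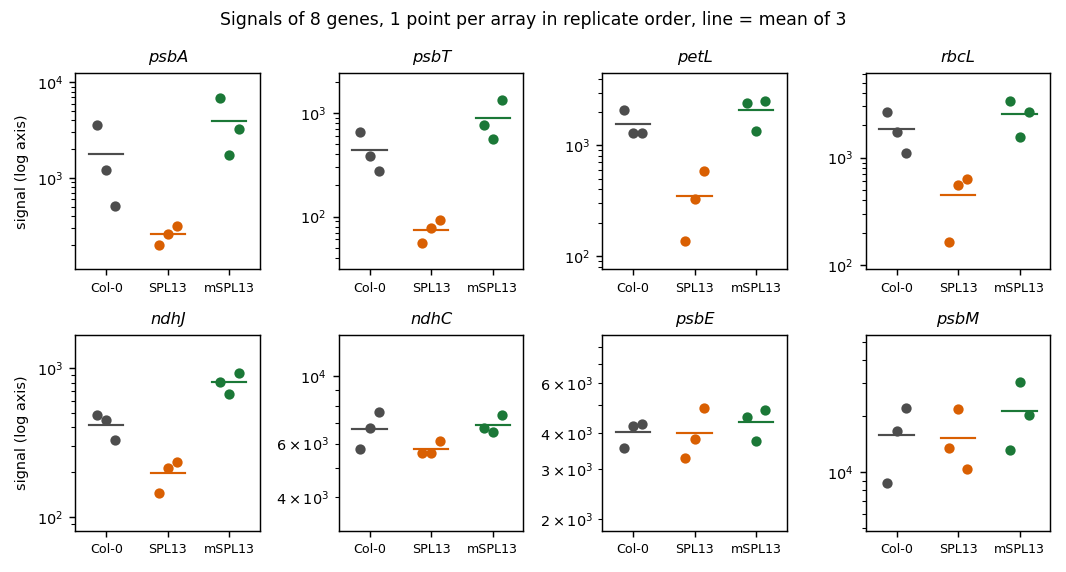
Signals of 8 genes (vertical axes, log scale, a scale of its own in each panel) on the 3 Col-0, 3 SPL13 and 3 mSPL13 arrays, 1 point per array in replicate order, with a line at each mean of 3. For psbA, psbT, petL, rbcL and ndhJ the SPL13 points lie below all others, whereas the groups of psbE and psbM overlap and those of ndhC differ little.

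The cytochrome b6f complex carries electrons from plastoquinone to plastocyanin and pumps protons. Of its 6 members petD was below the filter, with signals from 48.5 to 116.1, and 4 of the other 5 were called higher in mSPL13 than in SPL13. Cytochrome b6 is encoded by petB, whose signal was 19379, 18304 and 15455 on the Col-0 arrays, 4661, 10369.6 and 12369 on the SPL13 arrays and 18878, 16116 and 18355 on the mSPL13 arrays. All SPL13 arrays were below the rest. The mSPL13 minus SPL13 value of petB was 1.07 ± 0.25 (limma adjusted p = 0.0355), or 0.65 without SPL13 replicate 1. Cytochrome f is encoded by petA, for which it was 1.17 ± 0.24 (adjusted p = 0.0164). In mSPL13 minus Col-0, petB and petA were at 0.01 and -0.10, neither called. In SPL13 minus Col-0 they were at -1.06 and -1.26, neither called. The small subunit gene petL had the largest change of the complex, with signals of 2102, 1307 and 1281 on the Col-0 arrays, 136, 327 and 591 on the SPL13 arrays and 2414, 1350.5 and 2498 on the mSPL13 arrays. The SPL13 arrays again lay below all others, and the log2 fold change was 2.66 ± 0.38 for mSPL13 minus SPL13 (adjusted p = 0.00255) and -2.26 ± 0.38 for SPL13 minus Col-0 (adjusted p = 0.0512).

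Another small subunit gene, petN, behaved in another way, with signals of 149, 89.7 and 103 on the Col-0 arrays, 61.9, 76.2 and 109 on the SPL13 arrays and 342, 164 and 231 on the mSPL13 arrays. SPL13 and Col-0 overlapped (log2 fold change -0.39 ± 0.25, adjusted p = 0.696), while all 3 mSPL13 arrays were above both groups. It rose by 1.34 ± 0.25 against SPL13 (adjusted p = 0.011) and by 0.95 ± 0.25 against Col-0 (adjusted p = 0.0484). The difference of petG, for a further small subunit, was 0.87 ± 0.38 and was not called (adjusted p = 0.26), and without SPL13 replicate 1 it was 0.24. The call of petN against SPL13 was lost without mSPL13 replicate 1 (1.09), that of petA without mSPL13 replicate 3 (1.03), and that of petB without mSPL13 replicates 1 to 3 (1.03, 1.14 and 1.05) or Col-0 replicate 2 (1.07). With no filter the adjusted p was 0.0661 for petA and 0.118 for petB.

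ATP synthase makes ATP from the proton gradient, with a catalytic head outside the thylakoid membrane and a proton channel within it. The fold changes of the stalk and channel genes atpF and atpH were larger than those of atpB and atpE, which lie in another operon, and this contrast was not tested. The stalk gene atpF had signals of 5928, 4394 and 1947 on the Col-0 arrays, 268, 1005 and 1199 on the SPL13 arrays and 4978, 2396 and 5483 on the mSPL13 arrays. Its SPL13 arrays were below all others, with a log2 fold change of 2.51 ± 0.49 for mSPL13 minus SPL13 (adjusted p = 0.0133) and -2.39 ± 0.49 for SPL13 minus Col-0 (adjusted p = 0.0892). The gene of the channel's ring subunit, atpH, was higher in mSPL13 than in SPL13 by 2.33 ± 0.41 (limma adjusted p = 0.00825). The head subunit gene atpA of the same operon was higher by 1.34 ± 0.32 (adjusted p = 0.0358), or by 0.79 without SPL13 replicate 1. In mSPL13 minus Col-0, atpH and atpA were at 0.01 and -0.01, neither called. In SPL13 minus Col-0 they were at -2.32 and -1.35, neither called. The catalytic subunit is encoded by atpB, with signals of 29525, 27631 and 23999 on the Col-0 arrays, 8150.4, 22341 and 21780.1 on the SPL13 arrays and 28080.2, 29122 and 27760.3 on the mSPL13 arrays. SPL13 replicate 1 was far below the rest, SPL13 replicates 2 and 3 were close to Col-0 replicate 3, and the difference of 0.84 ± 0.27 was not called (adjusted p = 0.125). The gene of the small subunit epsilon, atpE, had signals of 23878, 23682 and 23195 on the Col-0 arrays, 8336, 18248 and 20461 on the SPL13 arrays and 27356, 24619 and 24225 on the mSPL13 arrays. It followed atpB, with 0.80 ± 0.23 (adjusted p = 0.09), and without SPL13 replicate 1 the values of atpB and atpE were 0.36 and 0.39. Without SPL13 replicate 3 atpE was called, at 1.04. The calls of atpF were lost without mSPL13 replicate 1 (2.36) or 3 (2.29), and those of atpA without mSPL13 replicates 1 to 3 (1.41, 1.35 and 1.25) or Col-0 replicate 2 (1.34). With no filter the adjusted p was 0.0589 for atpF and 0.116 for atpA. The channel gene atpI was below the filter, with signals of 115, 150.2 and 98.4 on the Col-0 arrays, 44.0, 19.5 and 53.8 on the SPL13 arrays and 178, 102 and 173 on the mSPL13 arrays, and in the fit with no filter its mSPL13 minus SPL13 value was 1.54 (adjusted p = 0.0317).

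The NDH complex returns electrons from photosystem I to plastoquinone in cyclic electron flow. Of its 11 members 9 were tested, and 8 of the 9 were called higher in mSPL13 than in SPL13, with a median of 1.9. The subunit gene ndhI had signals of 11777, 11035 and 8993 on the Col-0 arrays, 2456, 6567 and 6374 on the SPL13 arrays and 12987, 15662 and 16782 on the mSPL13 arrays. The mSPL13 arrays were above all Col-0 arrays and the SPL13 arrays below them, with 1.68 ± 0.28 for mSPL13 minus SPL13 (adjusted p = 0.0049), -1.16 ± 0.28 for SPL13 minus Col-0 and 0.51 ± 0.28 for mSPL13 minus Col-0. The membrane subunit gene ndhD had the largest SPL13 minus Col-0 change of the complex, with signals of 6113, 5758 and 3668 on the Col-0 arrays, 515, 1678 and 2114 on the SPL13 arrays and 4849, 6257 and 7198 on the mSPL13 arrays. It rose by 2.28 ± 0.38 in mSPL13 against SPL13 (adjusted p = 0.0049), and its value was -2.02 ± 0.38 for SPL13 minus Col-0 (adjusted p = 0.0601).

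The subunit gene ndhJ was the member called in both mSPL13 comparisons beside petN. Its signals were 482, 444 and 326 on the Col-0 arrays, 145, 213 and 235 on the SPL13 arrays and 804, 668 and 934 on the mSPL13 arrays. The 3 groups did not overlap, and ndhJ rose by 1.92 ± 0.19 against SPL13 (adjusted p = 0.000118) and by 0.91 ± 0.19 against Col-0 (adjusted p = 0.0147). The other NDH genes called higher in mSPL13 than in SPL13 were ndhA (1.91), ndhE (2.03), ndhG (1.34), ndhH (1.90) and ndhK (1.63). In the same order they were at 0.59, 0.21, 0.59, 0.63 and 0.52 in mSPL13 minus Col-0, none called. Their SPL13 minus Col-0 values were -1.31, -1.82, -0.75, -1.27 and -1.11, none called. The NDH gene tested and not called was ndhC. Its signals were 5760.1, 6735 and 7639 on the Col-0 arrays, 5566, 5603 and 6137 on the SPL13 arrays and 6736, 6553 and 7467 on the mSPL13 arrays. Its SPL13 arrays overlapped those of Col-0, and the difference of 0.26 ± 0.11 was not called (adjusted p = 0.268). The probe set of ndhB, a gene present in both copies of the inverted repeat of the plastid genome, gave signals from 39.7 to 128.2, and that of ndhF gave signals from 10.7 to 59.0, all groups overlapping. The 8 NDH calls held under every alternative in which the gene was tested.

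RuBisCO fixes carbon dioxide, and its large subunit is encoded by rbcL. The signals were 2658, 1751 and 1103 on the Col-0 arrays, 164, 557 and 631 on the SPL13 arrays and 3397, 1555 and 2649.8 on the mSPL13 arrays. All SPL13 arrays lay below the rest, and the mSPL13 and Col-0 arrays overlapped. The gene rose 5.92-fold in mSPL13 against SPL13 (log2 fold change 2.56 ± 0.42, adjusted p = 0.0049), and was at -2.09 ± 0.42 in SPL13 against Col-0 (adjusted p = 0.0875).

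Set side by side, the median SPL13 minus Col-0 change was -1.99 for photosystem I, -1.4 for photosystem II, -1.15 for cytochrome b6f, -1.35 for ATP synthase and -1.16 for NDH. The medians of mSPL13 minus SPL13 in the same order were 2.4, 1.59, 1.17, 1.34 and 1.9. Without SPL13 replicate 1 the SPL13 minus Col-0 medians were -1.31, -0.62, -0.64, -0.81 and -0.82. The mSPL13 minus SPL13 medians were then 1.73, 1.08, 0.8, 0.79 and 1.4, and 4, 8, 4, 3 and 8 members were called. These are descriptions of 5 to 15 genes each, and the differences between the complexes were not tested.

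**Figure D4:**
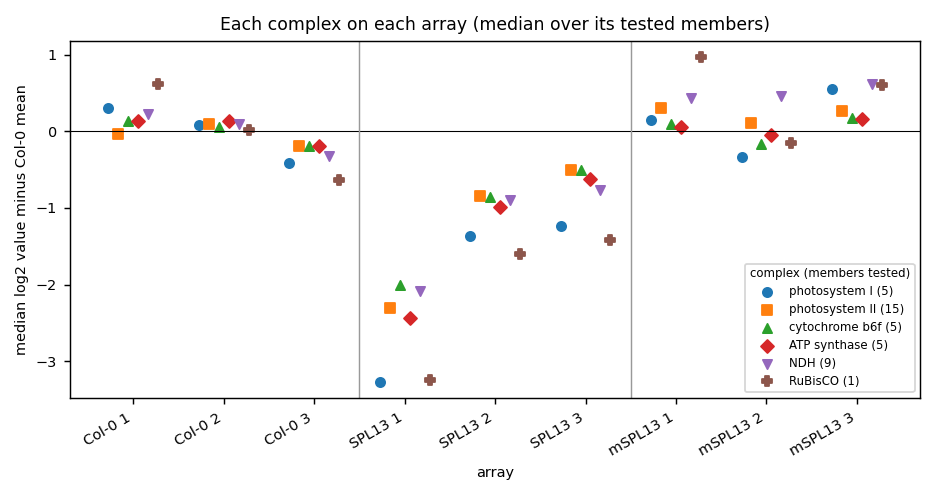
Median log2 value of each complex's tested genes minus their Col-0 means (vertical axis) on each of the 9 arrays, with 1 symbol per complex and the number of genes tested in the legend. Every complex is below 0 on the 3 SPL13 arrays and lowest on SPL13 replicate 1, and photosystem I and RuBisCO lie lowest there.

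Genes of 1 transcription unit often differed in size of change, so the complex was not the only grouping in which the members varied. The psbE operon, which holds psbE, psbF, psbL and psbJ, had medians between -0.38 and 0.15 on all 9 arrays, SPL13 replicate 1 included, and 0 of its 4 genes were called with limma. In the ndhH operon, all 7 genes (ndhH, ndhA, ndhI, ndhG, ndhE, psaC and ndhD) were called higher in mSPL13 than in SPL13, from 1.34 to 2.4. In the psbB operon all 4 genes tested were called, from 1.07 for petB to 3.67 for psbB. In the atpB operon neither gene was called.

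Log2 ratios of genes of 1 unit were taken within each array, after 20.7 was added to both signals, which shrinks the ratios of dim probe sets. Of 19 such pairs, picked after the values were seen and not tested, the ratio did not overlap between SPL13 and Col-0 in 9 and overlapped in 10. Between mSPL13 and SPL13 it did not overlap in 15 and overlapped in 4. The share was not computed for other gene pairs, so these counts describe the picked pairs only. In the ndhC operon, the log2 ratio of ndhC to ndhJ was 3.52, 3.86 and 4.46 on the Col-0 arrays, 5.07, 4.59 and 4.59 on the SPL13 arrays and 3.03, 3.25 and 2.97 on the mSPL13 arrays. These 3 groups did not overlap, whereas the ratio of ndhC to ndhK overlapped between Col-0 (3.91, 4.21 and 4.99) and SPL13 (5.69, 5.22 and 4.9). In the petL operon, the log2 ratio of psaJ to petL was 2.68, 3.22 and 2.68 in Col-0, 4.42, 4.11 and 3.37 in SPL13 and 2.06, 2.38 and 2.09 in mSPL13, again with no overlap. In the operon of atpI, atpH, atpF and atpA, the log2 ratio of atpA to atpF was 0.93, 1.43 and 2.27 in Col-0, 2.79, 2.41 and 2.54 in SPL13 and 0.96, 2.12 and 1.14 in mSPL13. Here SPL13 was above both other groups.

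By contrast, the log2 ratio of atpE to atpB lay between -0.31 and 0.03 on all 9 arrays, and that of psbF to psbE between 0.42 and 0.83, with all groups overlapping. In the psbB operon the log2 ratio of petB to psbT was 4.82, 5.5 and 5.7 in Col-0, 5.94, 6.73 and 6.79 in SPL13 and 4.57, 4.78 and 3.74 in mSPL13. The groups did not overlap between SPL13 and either of the others. The ratio of petB to psbB in the same operon was 3.14, 3.59 and 5.59 in Col-0 and 4.99, 5.55 and 5.37 in SPL13, and Col-0 replicate 3 lay above all SPL13 arrays.

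**Figure D5:**
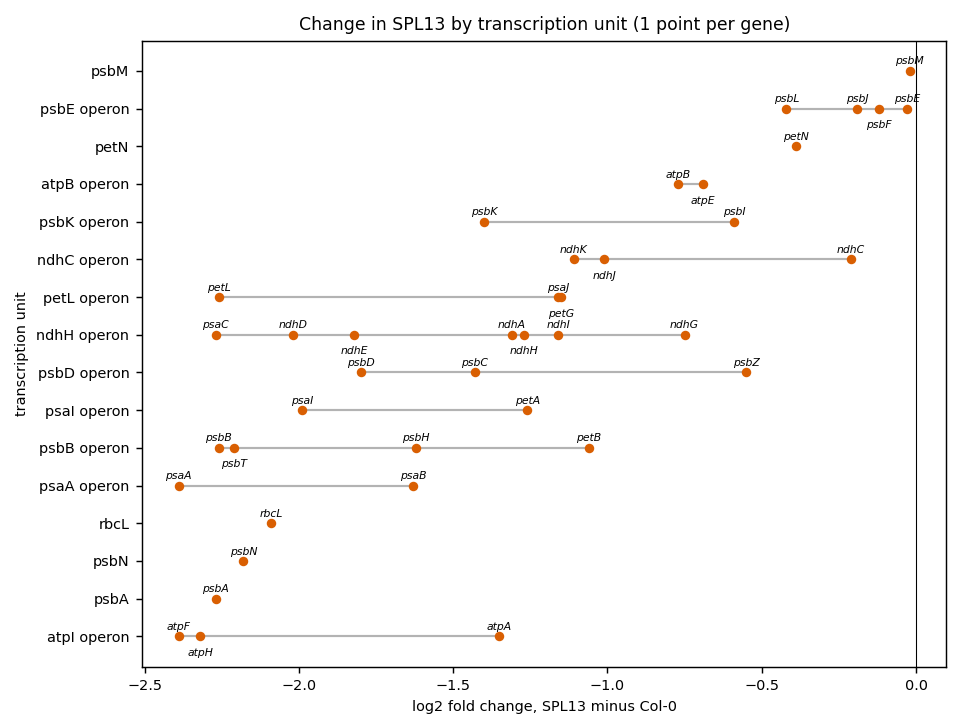
Log2 fold change of SPL13 minus Col-0 (horizontal axis) of the tested genes by transcription unit (vertical axis, ordered by the unit's median), with 1 labelled point per gene and a line over the range of each unit. The psbE operon lies between -0.42 and -0.03, whereas ndhC (-0.21) is apart from ndhJ (-1.01) and ndhK (-1.11) and petL (-2.26) is apart from petG (-1.15) and psaJ (-1.16).

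Within each group, the array with the lowest median over the members was set against the mean of the other 2. This choice favours counts below that mean, so the counts describe these arrays only. The share of all probe sets was not computed, and common variation of the members within groups was not tested. In Col-0, replicate 3 was below the mean of the other 2 arrays for 31 of 40 members, with a median difference of -0.39 on the log2 scale, with psbB lowest (-2.51) and psbM highest (0.87). In SPL13, replicate 1 was below the mean of the others for 39 of 40, with a median difference of -1.24, with psbD lowest (-2.96) and psbL highest (0.03). In mSPL13, replicate 2 was below for 32 of 40, with a median difference of -0.26, with psbA lowest (-1.45) and psbM highest (0.90). Over the 40 genes, the Col-0 and mSPL13 patterns had a Pearson r of 0.43 (Spearman rho 0.31), the SPL13 and Col-0 patterns an r of 0.29 (rho 0.36), and the SPL13 and mSPL13 patterns an r of -0.02 (rho -0.03). The patterns share no array, genes of 1 operon are not independent points, and each array of a pattern was chosen as the one that stood lowest. A single axis held 89.0% of the variation of the 40 genes over the 9 arrays, and the next held 5.51%. These shares include the differences between the groups and do not measure variation within groups.

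In mSPL13 against Col-0 few members were called. The largest estimates were those of psbB (1.41 ± 0.54, limma adjusted p = 0.163), psbA (1.37 ± 0.55, adjusted p = 0.181) and psbT (0.99 ± 0.31, adjusted p = 0.0849), not called. Of the 40, 34 had a positive log2 fold change, with a median of 0.23 beside 0.013 for all probe sets tested. Called higher were 2, ndhJ and petN, beside 2.07% of all probe sets, and called lower were 0, beside 2.3%. At an unadjusted p under 0.05, 7 were higher and 0 lower, beside 10.5% and 9.56%. In mSPL13 the 3 arrays were above the 3 of Col-0 for 7 of the 40 genes (psbC, petN, atpE, ndhA, ndhH, ndhI and ndhJ), beside 12.6% of all probe sets tested. The median over the 9 NDH genes tested was 0.52, and over the other complexes it was 0.14 for photosystem I, 0.24 for photosystem II, 0.01 for cytochrome b6f and 0.07 for ATP synthase. The call of ndhJ was lost without mSPL13 replicate 1 (0.91) or 3 (0.80). The call of petN was lost without mSPL13 replicate 1 (0.71) or 3 (0.97), Col-0 replicate 2 (0.82) or 3 (0.91), or SPL13 replicate 2 or 3 (0.95), and also with no filter, without trend, and with a lower pseudocount or none. Without Col-0 replicate 1, psbA (2.09) and psbT (1.31) were called, psbT also without mSPL13 replicate 2 (1.27), and without SPL13 replicate 1 so were ndhA (0.59) and ndhI (0.51). The count was 0 without mSPL13 replicate 1 or 3, 4 without Col-0 replicate 1 or SPL13 replicate 1, 3 without mSPL13 replicate 2 and 1 without any other array. On the compared groups only it was 3, with ndhA added (0.59, limma adjusted p = 0.0275).

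The median of the nuclear-encoded photosynthesis genes was near the Col-0 level on every array. Of 57 such genes listed, 11 were matched to a probe set of a single gene. They were PSAE1, PSAN, PSBW, PSBY, ATPC1, NDHL, NDHN, LHCB4.1, LHCB4.2, RCA and PRK. RCA and PRK encode enzymes, LHCB4.1 and LHCB4.2 antenna proteins, and no subunit of cytochrome b6f or RuBisCO was among the 11. With limma 0 of the 11 were called in any comparison. Their medians were -0.12 for mSPL13 minus SPL13, 0.08 for SPL13 minus Col-0 and 0.01 for mSPL13 minus Col-0. Their median on single arrays ranged from -0.14 to 0.17, and on SPL13 replicate 1 it was 0.17. The other plastid genes differed in the same direction as the photosynthesis genes: of 32 tested, 22 were called higher in mSPL13 than in SPL13, with a median of 1.41, and their medians on the SPL13 arrays were -2.21, -1.14 and -1.09. Among these, 5 tested genes that include subunits of the plastid's own RNA polymerase (rpoB, rpoC1, rpoC2, accD, ycf1 and ycf2 were looked for, a choice made with the values known) had a median of 1.95. Of 18 mitochondrial probe sets 2 were tested, and both were called higher in mSPL13 than in SPL13, at 1.68 and 2.52.

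Few of the listed nuclear genes that act on plastid transcripts were matched to a probe set here, and how many the array covers was not examined. Of 22 listed genes for plastid transcription 1 was matched to a probe set of a single gene, which was below the filter. Of 17 listed for plastid RNA binding and decay 1 was matched in this way. Its log2 fold change was -0.01 for mSPL13 minus SPL13, not called. Of the 4 genes listed as root markers, NAI2, needed for endoplasmic reticulum bodies, was called lower with limma in mSPL13. The change was -0.60 against SPL13 (adjusted p = 0.0097) and -0.67 against Col-0 (adjusted p = 0.00377). The median of the 4 was -0.18, -0.05 and -0.22 on the SPL13 arrays and -0.22, -0.3 and -0.43 on the mSPL13 arrays, relative to Col-0. Against Col-0, 0 of the 4 were called in SPL13, and the share of root tissue was not tested.

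Some control probe sets were low on SPL13 replicate 1, where most of the plastid genes were lowest. The signal of the 25S ribosomal RNA controls was 190.7, 207.8 and 284.1 in Col-0, 79.3, 127.5 and 216.7 in SPL13 and 206.3, 195.5 and 260.2 in mSPL13. It was lowest on SPL13 replicate 1, while SPL13 replicate 3 lay within the range of the other groups. The 5S ribosomal RNA control gave 27.3, 4.6 and 22.5 in Col-0, 15.6, 1.8 and 17.3 in SPL13 and 18.1, 12.8 and 16.8 in mSPL13. That signal was lowest on SPL13 replicate 2. The median signal of the polyadenylated controls was 56.4, 91.1 and 95.4 on the SPL13 arrays and between 96.1 and 147.1 on the other 6. All 3 SPL13 arrays were thus the lowest, as for most of the plastid genes, though SPL13 replicate 3 only by a small margin. The hybridisation controls ranged from 1082 to 1455 and did not stand apart on SPL13 replicate 1 (1129). The median log2 value of nuclear probe sets differed from its mean over arrays by -0.062 to 0.049. Degraded RNA raises the 3' over 5' signal ratio of control genes. On SPL13 replicate 1 it was highest for 1 GAPDH pair (1.1) and 1 actin pair (33.0), and lowest for another GAPDH pair (0.838). For both ubiquitin pairs (2.64 and 1.07) and the other actin pair (2.94) it lay there within the range of the other arrays. The part of these controls in the plastid values was not tested.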

How the data were processed

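RNA of 9 whole-seedling samples was measured on 1-colour Affymetrix arrays, 3 for each of Col-0, SPL13 and mSPL13. Per the labels' protocols, total RNA was made into cDNA and then into biotin-labelled cRNA with T7 RNA polymerase. The authors deposited linear intensity signals, computed with MAS5 in GCOS per the submitters' processing notes. Plastid RNA mostly lacks the poly(A) tail, and the primers for the cDNA are not given in the sources used here, so how fully it was labelled is unknown.

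Genes were named from the platform annotation, and the TAIR10.1 gene table was used for symbols and for which genes neighbour each other. The 20th percentile of the signals (20.7) was added to each signal before log2 was taken. Of 22810 probe sets, 64 controls were left out, and 13629 were tested, those whose log2 values averaged over 6.926 (40th percentile). The 3 genotype means were estimated in a single fit of the 9 arrays in limma 3.58.1 (R 4.3.3, eBayes with trend, 6 residual and 7.91 prior degrees of freedom) and checked on simulated data. P-values were adjusted (Benjamini-Hochberg) over all probe sets tested. Each p-value weighs a difference of group means against the spread between the arrays, which came from seed lots. As the number of lines in a group is not given, effects of a transgene and of a line cannot be told apart.

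All members could be named. Values on the 9 arrays were given, for each complex, for the member with the highest mean signal and those with the largest and smallest SPL13 minus Col-0 change, and in addition for members that the text singles out. The members, the operons and the gene lists were chosen with earlier results of these data known. The alternatives were 3 other pseudocounts, no filter or a stricter one, quantile normalization, centring on nuclear probe sets, no trend, the compared groups only, the replicate block, array quality weights, other thresholds, and each array left out. Tables and figures used Python 3.11.15, matplotlib 3.10.9, scipy 1.17.1, pandas 2.3.3 and numpy 2.4.6.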

Additional observations from a re-analysis of the deposited data

How the results depend on the processing

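In the comparison of mSPL13 with SPL13, the number of members called higher was 20 to 30 over the 11 other analysis settings (main value 29), 18 at a threshold of 0.01, and 18 to 31 when 1 array was left out. Of the 29 calls, 17 held under every alternative in which the gene was tested, and all 29 kept a positive sign. For SPL13 versus Col-0, the number called lower (main value 1) was 4 with the higher pseudocount (40th percentile), 8 when arrays were centred on nuclear probe sets, 0 with no filter or without trend, 0 at a threshold of 0.01, 13 at 0.10, and 0 to 19 when 1 array was left out. For mSPL13 versus Col-0, the number called higher (main value 2) was 1 with the lower pseudocount (10th percentile) or none, with no filter, with the stricter filter or without trend, 0 at a threshold of 0.01, and 0 to 4 when 1 array was left out. It was 3 on the compared groups only and 3 at a threshold of 0.10. The causes were not tested. The median log2 fold changes ranged from 1.21 to 1.98, -1.65 to -0.82 and 0.13 to 0.35 when 1 array was left out. Same-numbered arrays had correlated deviations from their group means of -0.06 to 0.15, so the numbers were not taken as pairs. With the replicate block the 3 counts of members were 29, 1 and 2. Over all probe sets, 413 were called in mSPL13 versus SPL13, 236 with no filter and 690 with array quality weights. For SPL13 versus Col-0 the count was 7, and 14 with the higher pseudocount, 24 when centred, 1 with no filter or without trend and 2 on the compared groups only. For mSPL13 versus Col-0 it was 596, and 373 with no filter. Leaving out 1 array gave 199 to 468, 1 to 148 and 248 to 904. The 4 genes below the filter, 3 arrays per group and the unknown labelling of plastid RNA limit what can be read.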
